A study of Rattus norvegicus with 6 samples.

Results

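miR-128-3p and miR-328a-3p are a pair of microRNAs (miRNAs, short RNAs that lower the output of matching messenger RNAs) described here in exosomes, the small vesicles that cells release. They were chosen by their measured abundance: both lay among the 10 miRNAs with the highest mean value over the 6 libraries, although they are best known from brain and other tissues. They are 2 of 763 miRNAs listed. Their high level is therefore a description and not a result. The exosomes came from the culture medium of rat mesenchymal stem cells (cell line RBMSC, wild type), purified with a commercial isolation reagent, and their small RNA was sequenced. Libraries 1 to 3 of the untreated group came from cells given no pretreatment. Libraries 1 to 3 of the nicorandil group came from cells that had received 200 µM nicorandil, a potassium channel opener and nitric oxide donor, for 24 h. It is not stated whether replicates were grown as separate cultures, so p-values measure only the spread between these libraries, which may be technical.

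miR-128 is enriched in neurons, where it is known for restraining excitability, and it is also studied as a growth-limiting miRNA in brain tumours. Rat has a pair of genes for it, and in the RefSeq annotation Mir128-1 lies within the span of R3hdm1 and Mir128-2 within that of Arpp21, a gene of striatal neurons. miR-328 is known from heart, blood and brain, with calcium channel subunits and the amyloid-processing enzyme BACE1 among its described targets, and its gene, Mir328, lies within the span of Elmo3. A miRNA is cut from a hairpin with 2 arms, named 5p and 3p, and its seed (bases 2 to 8) does most of the target recognition.

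The sequences below show what the reads named miR-128-3p stand for, from RefSeq on the rat build GRCr8, written 5′ to 3′. The seed is in capitals in the mature form, and the mature stretch is in capitals in both hairpins, at chr13:42251884-42251965 (plus strand) and chr8:120963795-120963878 (minus strand). Since both hairpins hold the same mature stretch, a mature read does not tell which gene it came from. The miRNAs of the table that hold the same 7 bases and had a read, miR-27a-3p and miR-27b-3p, are shown with those bases in capitals.
miR-128-3p: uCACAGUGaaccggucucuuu
Mir128-1 hairpin: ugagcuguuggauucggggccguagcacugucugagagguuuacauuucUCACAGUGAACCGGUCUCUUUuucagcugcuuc
Mir128-2 hairpin: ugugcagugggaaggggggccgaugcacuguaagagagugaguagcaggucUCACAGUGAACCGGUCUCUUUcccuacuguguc
miR-27a-3p: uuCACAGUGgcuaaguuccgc
miR-27b-3p: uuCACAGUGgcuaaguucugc

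Depth was low and unequal. The deposited values could be turned back into whole reads, which came to 2212 to 2338 miRNA reads in an untreated library and 8426 to 16628 in a nicorandil library, a 6.11-fold difference between the summed groups. Untreated replicates 1 and 2 differed by about as much as sampling noise alone would give (chi-square 49.13 on 51 degrees of freedom, p = 0.548, over miRNA read counts). The same chi-square test gave p = 0.16 for replicates 1 and 3 (64.28 on 54 degrees of freedom), no detectable difference, and p = 0.0121 for replicates 2 and 3. Every pair of nicorandil libraries differed far beyond sampling noise (chi-square p = 2.11e-13, 2.98e-51 and 5.36e-55). The test detects smaller differences at higher depth, so these p-values do not show that the untreated libraries were more alike. All 3 untreated libraries were kept as replicates, and values with replicates 1 and 2 averaged are given where they change a call. All 13 miRNAs of a mesenchymal list had a read in at least 1 library. Together they took 28.4% to 29.1% of the untreated and 27.1% to 33.0% of the nicorandil reads. Most of these reads were miR-143-3p (11754 of 15074). Others of the list were scarce: miR-31a-5p had 1 read, and miR-145-5p had 0 untreated and 46 nicorandil reads.

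miR-328a-3p was the more abundant of the pair in every library. Its deposited value, a normalized read number, was 188.2, 247.6 and 177.8 in the untreated libraries and 194.1, 186.4 and 163.1 in the nicorandil libraries. The groups overlapped, and untreated replicate 2 stood highest. For miR-128-3p the untreated libraries had values of 103.3, 139.5 and 98.16, and those after nicorandil 160.8, 137.5 and 130.0. These groups overlapped too, because untreated replicate 2 exceeded nicorandil replicates 2 and 3. Both miRNAs were thus highest in the same untreated library, replicate 2, and in the same nicorandil library, replicate 1.

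On the log2(value + 1) scale miR-128-3p was at a log2 fold change of 0.34 (SE 0.17, 95% interval -0.02 to 0.69), from 113.7 ± 22.5 to 142.8 ± 16.1 normalized reads (SD, n = 3). Its limma adjusted p was 0.203. miR-328a-3p was at -0.16 (SE 0.15, 95% interval -0.49 to 0.16), from 204.5 ± 37.7 to 181.2 ± 16.1 (SD, n = 3; limma adjusted p = 0.629). Neither miRNA passed the threshold, a Benjamini-Hochberg adjusted p of 0.05, while 21.5% of the 121 miRNAs tested did (26 miRNAs). The unadjusted limma p was 0.0602 for miR-128-3p and 0.302 for miR-328a-3p. The authors' deposited table gives log2 fold changes of 0.33 for miR-128-3p and -0.17 for miR-328a-3p, with unadjusted p-values of 0.112 and 0.359. The interval of miR-128-3p reaches from 0.989-fold to 1.62-fold, and that of miR-328a-3p from 0.714-fold to 1.12-fold, so these data do not show that either stayed level.

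As a share of all miRNA reads, which amounts to scaling by the library total, miR-328a-3p separated between the groups and miR-128-3p did not. The deposited values, scaled otherwise, showed no such separation. miR-328a-3p took 4.36%, 5.24% and 3.59% of the untreated reads, from 97, 116 and 84 reads. In the nicorandil libraries it took 3.10%, 2.88% and 2.52%, from 516, 470 and 212 reads. Every nicorandil share lay below every untreated one. The mean fell short of the untreated mean by a factor of 1.55, at 2.83% ± 0.296 against 4.40% ± 0.826 (SD, n = 3). An exact permutation test (two-sided) gave p = 0.1, its lowest possible value for 3 libraries against 3, and 0.15 after adjustment over the 3 quantities tested in this way. Shares were separated downward in the same manner for 21.5% of the 121 tested miRNAs, so such a separation was common here. Within counting error the lowest untreated share (95% Wilson interval 2.91% to 4.43%) and the highest nicorandil share (2.85% to 3.38%) were not apart.

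miR-128-3p kept overlapping shares. It took 2.38%, 2.98% and 1.97% of the untreated reads, from 53, 66 and 46 reads, and 2.56%, 2.13% and 2.01% of the nicorandil reads, from 426, 348 and 169 reads. The means were 2.44% ± 0.511 and 2.23% ± 0.292 (SD, n = 3), and the same exact permutation test gave p = 0.7. Without untreated replicate 2 the difference changed sign, from -0.212 to 0.058 percentage points. Together the pair took 5.56% to 8.23% of the untreated and 4.52% to 5.67% of the nicorandil reads.

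**Figure D1:**
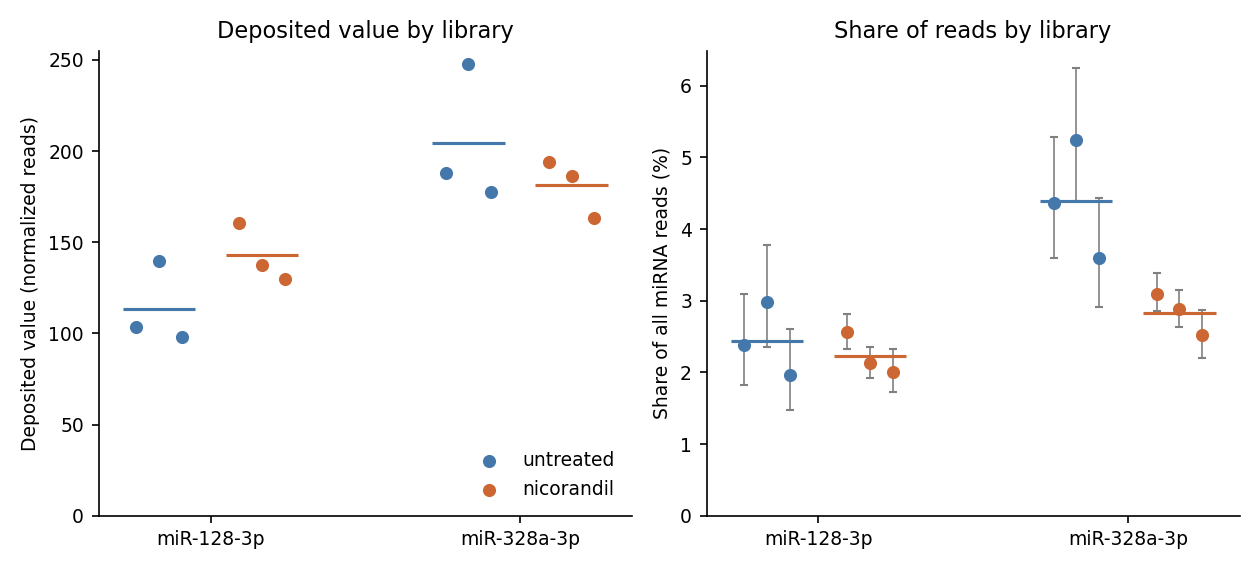
Deposited value in normalized reads (left) and share of all miRNA reads in percent (right) of miR-128-3p and miR-328a-3p, 1 point per library, with horizontal lines at group means and grey bars for 95% Wilson intervals of counting error. The nicorandil shares of miR-328a-3p, 2.52% to 3.10%, all lie below the untreated ones, 3.59% to 5.24%, while the deposited values of both miRNAs overlap between the groups.

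A scale on library totals tests these shares across all miRNAs. With it miR-328a-3p was lower after nicorandil, at a log2 fold change of -0.62 (SE 0.15, 95% interval -0.96 to -0.28, limma adjusted p = 0.0191), one of 11 miRNAs called lower, or 9.09% of those tested. Of the 121 tested miRNAs 21 had a more negative value. miR-128-3p turned from 0.34 to -0.12 on this scale (limma adjusted p = 0.73). The call of miR-328a-3p was lost without untreated replicate 2 (-0.49, adjusted p = 0.0989), without nicorandil replicate 1, 2 or 3 (limma adjusted p = 0.0789, 0.0983 and 0.101), and with untreated replicates 1 and 2 averaged (-0.55, adjusted p = 0.0855).

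The scale moves the miRNAs as a set, but not each by the same amount. From the deposited values to library totals miR-328a-3p went from -0.16 to -0.62, whereas miR-129-5p, with few reads, went from -0.74 to -0.71. Distances from the median therefore also depend on the scale. The median log2 fold change over the 121 tested miRNAs was 0.23 for the deposited values and -0.12 with library totals, a shift of -0.35. Set against that median, miR-128-3p lay close to the typical miRNA, 0.11 above it for the deposited values and 0.00 from it with library totals. miR-328a-3p lay further down, at -0.39 from the median for the deposited values and -0.50 with library totals. In limma its log2 fold change was -0.16 with TMM factors, -0.25 with the upper quartile and -0.39 with median-of-ratios factors (adjusted p = 0.663, 0.612 and 0.154). With edgeR's quasi-likelihood method it was -0.42 (adjusted p = 0.0551) and with DESeq2 -0.41 (adjusted p = 0.0998). None of these 5 passed after adjustment. The unadjusted p was 0.028 in limma with median-of-ratios factors, 0.014 in edgeR's quasi-likelihood fit and 0.017 in DESeq2.

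**Figure D2:**
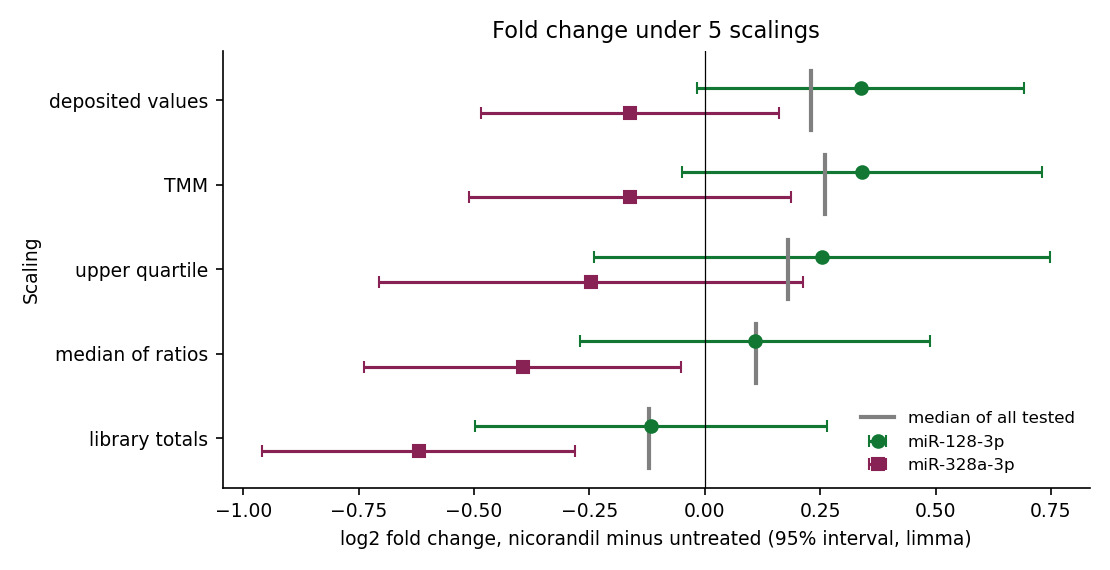
Log2 fold change (nicorandil minus untreated, limma) of miR-128-3p (circles) and miR-328a-3p (squares) under 5 scalings, with bars for 95% intervals and a grey mark at the median of the 121 tested miRNAs. miR-128-3p stays near the median, from 0.34 to -0.12, and miR-328a-3p lies to its left under each of the 5 scalings, from -0.16 to -0.62.

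The ratio of the pair within a library is free of any scaling. miR-328a-3p had 1.83, 1.76 and 1.83 reads per read of miR-128-3p in the untreated libraries and 1.21, 1.35 and 1.25 in the nicorandil libraries. The 3 untreated ratios lay close together and above all nicorandil ratios. The log2 ratio averaged 0.85 ± 0.03 for the untreated group and 0.35 ± 0.08 for the nicorandil group (SD, n = 3), a difference of -0.51 that exceeded the spread between libraries. The untreated spread is smaller than counting error, however, and may understate the noise. In untreated replicate 1 alone the 95% Wilson-based interval of the ratio was 1.31 to 2.55. The exact permutation test again gave p = 0.1, which 3 against 3 cannot go below (0.15 adjusted over 3 quantities). How often the ratios of other pairs of miRNAs separate in this manner was not counted. The difference ranged from -0.55 to -0.47 when each library was left out in turn and was -0.51 with untreated replicates 1 and 2 averaged. Summed over the group, 64.3% of the 462 untreated reads of the pair were miR-328a-3p (95% Wilson interval 59.8% to 68.5%), against 56.0% of 2141 nicorandil reads (53.8% to 58.0%). These intervals cover counting error only and compare the pooled libraries, not the conditions. For single libraries the intervals were wide and overlapped: 56.1% to 72.3% in untreated replicate 3, for example, and 54.0% to 60.8% in nicorandil replicate 2. The ratio does not say which member moved: for the deposited values miR-128-3p was at 0.34 and miR-328a-3p at -0.16, and neither was called. A change in the vesicles that carry a miRNA and a change in copies per vesicle cannot be told apart in such bulk preparations.

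**Figure D3:**
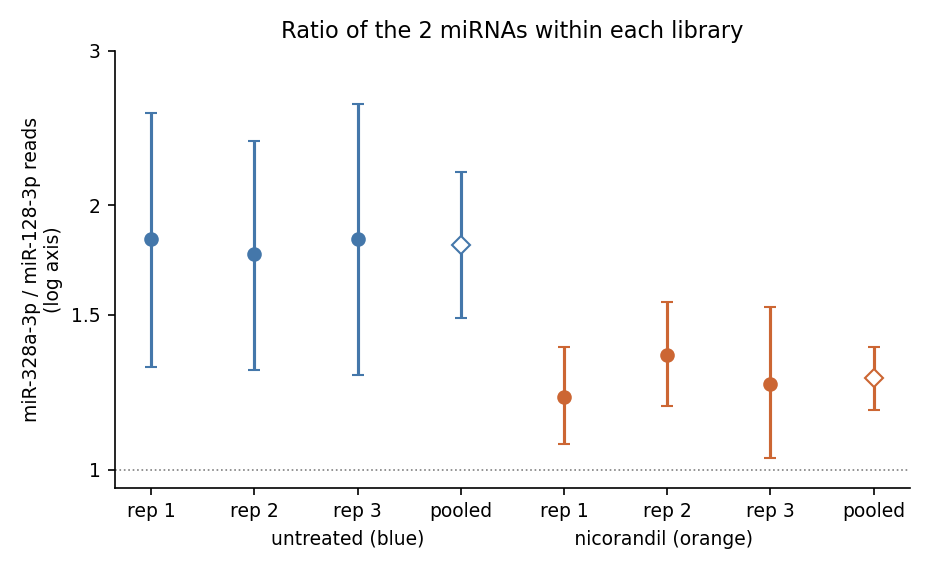
Reads of miR-328a-3p per read of miR-128-3p on a log axis, for each library (filled circles) and for the 3 libraries of a group pooled (open diamonds), with bars for 95% Wilson-based intervals of counting error and a dotted line at 1. The untreated ratios are 1.76 to 1.83 and the nicorandil ratios 1.21 to 1.35, while the bars of single libraries overlap between the groups.

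Ranked by share within each library, miR-328a-3p stood at 5 in all untreated libraries and at 5, 6 and 8 after nicorandil. miR-128-3p stood at 8, 6 and 11 without and at 8, 10 and 11 with nicorandil. The ranks of the groups overlapped for both. By mean share miR-328a-3p ranked 5 in untreated exosomes, below miR-24-3p and above miR-191a-5p in each of the 3 libraries. In nicorandil exosomes it ranked 6, with miR-24-3p (4.70% to 5.29%) above it in all 3 libraries. Its nearer neighbours did not keep 1 side: miR-320-3p was higher in 2 of 3 libraries, and miR-21-5p and miR-191a-5p were lower in 2 of 3. miR-128-3p ranked 8 in untreated and 10 in nicorandil exosomes. Its untreated neighbours miR-423-3p (mean share 2.49%) and miR-21-5p (2.40%) did not differ from its 2.44% beyond the spread, nor did its nicorandil neighbour miR-99a-5p (2.50% against 2.23%), whereas miR-30d-5p (1.85%) was lower in all 3 nicorandil libraries. By mean deposited value over the 6 libraries, which set the choice of members, miR-128-3p was the ninth at 128.2, miR-99a-5p the last inside at 123.1 and miR-423-3p the first outside at 112.4.

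Ratios to the other 8 of the 10 most abundant miRNAs place each member against its peers. Between the members these ratios differ by the ratio of the pair, so they add no support to that difference. The log2 ratio of miR-328a-3p was lower in all 3 nicorandil libraries than in any untreated one against 7 of the 8, with miR-24-3p the exception (-0.63 in untreated and -0.83 in nicorandil exosomes on average). These 7 included miR-423-5p, at -0.88 and -1.38, and miR-191a-5p, at 0.61 and 0.19, where the nearest libraries of the groups were only just apart (0.45 and 0.43). Neither of these peers was called in limma, at log2 fold changes of 0.34 and 0.25, although their deposited values were higher in all 3 nicorandil libraries than in any untreated one. Each of the remaining peers in the 7 was itself called higher after nicorandil (limma adjusted p from 2.65e-06 for miR-148a-3p to 0.00937 for miR-21-5p). A lower ratio to a peer that rose does not show a fall of miR-328a-3p. The exception, miR-24-3p, was at a log2 fold change of 0.03. For miR-128-3p the ratio was lower in all 3 nicorandil libraries than in any untreated one against 3 of the 8. These were miR-148a-3p, miR-320-3p and miR-99a-5p, each called higher for the deposited values (limma adjusted p = 2.65e-06, 0.000718 and 0.00045). Against miR-423-5p the log2 ratio of miR-128-3p averaged -1.73 in both groups. These ratios share the reads of the member and are not independent of each other. How often ratios of other tested miRNAs to these peers separate was not counted, so the 7 and the 3 have no background.

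**Figure D4:**
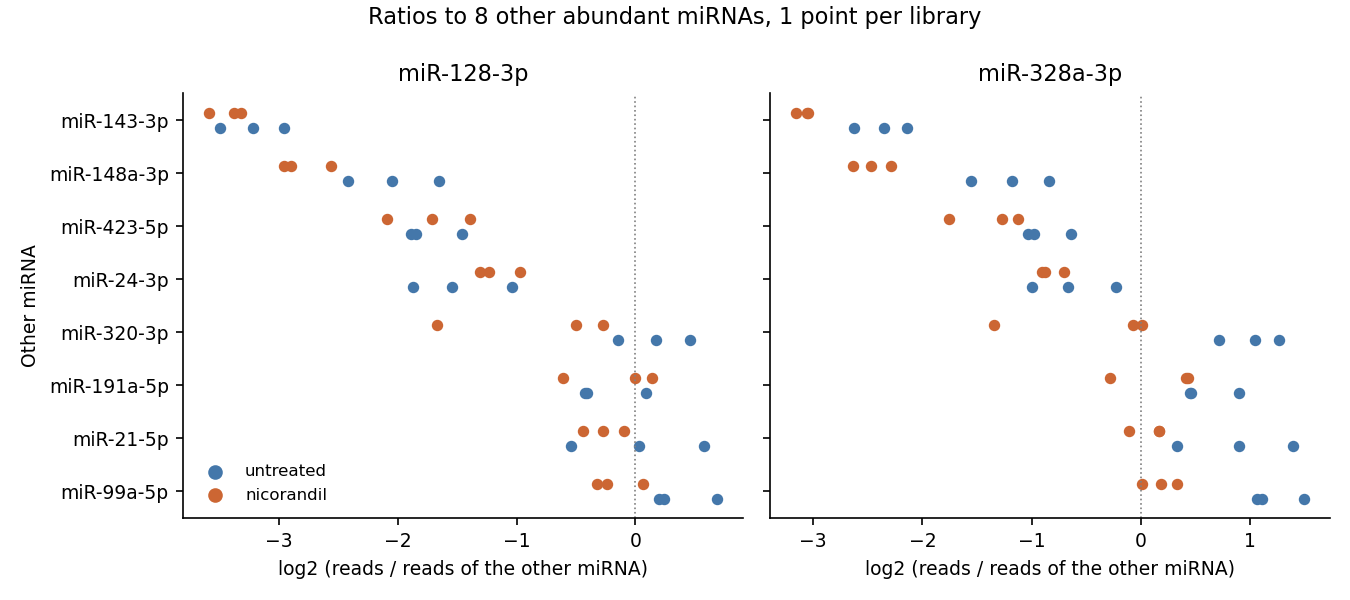
Log2 ratio of the reads of miR-128-3p (left) and miR-328a-3p (right) to those of 8 other abundant miRNAs, 1 point per library, untreated in blue and nicorandil in orange. The groups separate for 3 of the 8 ratios of miR-128-3p and for 7 of the 8 of miR-328a-3p.

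Only the 3p arm of either miRNA was seen. miR-128-3p had 1108 reads over the 6 libraries and miR-328a-3p 1495, whereas miR-128-1-5p, miR-128-2-5p and miR-328a-5p had none. With the absent arm set to a floor of 3 reads per group, the 3p arm of miR-128 was at least 55-fold higher in untreated and at least 314-fold higher in nicorandil exosomes. For miR-328a the bounds were at least 99-fold and at least 399-fold, and in both cases they follow the depth. The paralogue miR-328b-3p had no read either. A silent arm was common at this depth: of 36 miRNA names with both arms listed and at least 100 reads together, 16 had no read of one arm.

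No listed miRNA shared bases 2 to 8 or 2 to 7 with miR-128-3p at the same position, among the 686 of 763 with a RefSeq sequence. miR-328a-3p was not among those 686, so miRNAs sharing its seed were not searched for. The 7 seed bases of miR-128-3p occurred elsewhere in 6 others, of which miR-27a-3p and miR-27b-3p had reads. In both the stretch starts 1 base further in, at base 3, so that the recognition bases of miR-27 and miR-128 overlap, and 8 bases in a row are shared. miR-27a-3p, known from muscle, fat and inflammation, had 44 untreated and 310 nicorandil reads, at 30.4 ± 3.92 and 47.4 ± 6.14 normalized reads (SD, n = 3; log2 fold change 0.63, SE 0.22, limma adjusted p = 0.0467, and 0.655 with library totals). miR-27b-3p was at 21.3 ± 1.92 and 23.0 ± 5.73 (SD, n = 3; limma adjusted p = 0.897). Over the 6 libraries miR-27a-3p had 354 reads and miR-27b-3p 186, against 1108 of miR-128-3p.

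The members were chosen as abundant, so the levels of other neural miRNAs beside them are a description only. Of 27 neural miRNAs listed together for comparison, 19 had no read, among them miR-124-3p, the most typical miRNA of neurons, miR-9a-5p of neural progenitors, miR-219a-5p and miR-338-3p of oligodendrocytes and miR-137-3p and miR-138-5p of the brain. A count of 0 allows up to 0.0443% of the pooled untreated and 0.00725% of the pooled nicorandil reads. The whole list took 0.316% to 0.540% of the untreated and 0.249% to 0.319% of the nicorandil reads, 156 reads in all. miR-7a-5p, a miRNA of neurons and endocrine cells, led it with 62 reads, followed by miR-218a-5p of motor neurons with 44 and miR-330-3p with 26. Both members together had 10.8 to 26.0 times the reads of the list in the untreated and 16.0 to 18.1 times in the nicorandil libraries.

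The 5 neural miRNAs with enough reads to be tested had a median log2 fold change of -0.27, beside 0.23 for all tested. In limma 0 of the 5 passed, beside 21.5% of all tested, too few miRNAs to read against that share, and 0 had an unadjusted p under 0.05. Limma with library totals, limma with a pseudocount of 0.1 and limma-voom each had 1 unadjusted p under 0.05 and 0 passing. edgeR's exact test had 0 and 0, as did DESeq2, which left 21 of the 121 adjusted p-values missing. miR-218a-5p was at 0.62 (SE 0.69), miR-330-3p at -0.15 (SE 0.57), miR-7a-5p at -0.27 (SE 0.57), miR-129-5p at -0.74 (SE 0.82) and miR-132-3p at -1.21 (SE 0.69). These miRNAs had 6 to 62 reads each. The remaining 3 with a read, miR-212-3p, miR-134-5p and miR-598-3p, had 5, 3 and 2.

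**Figure D5:**
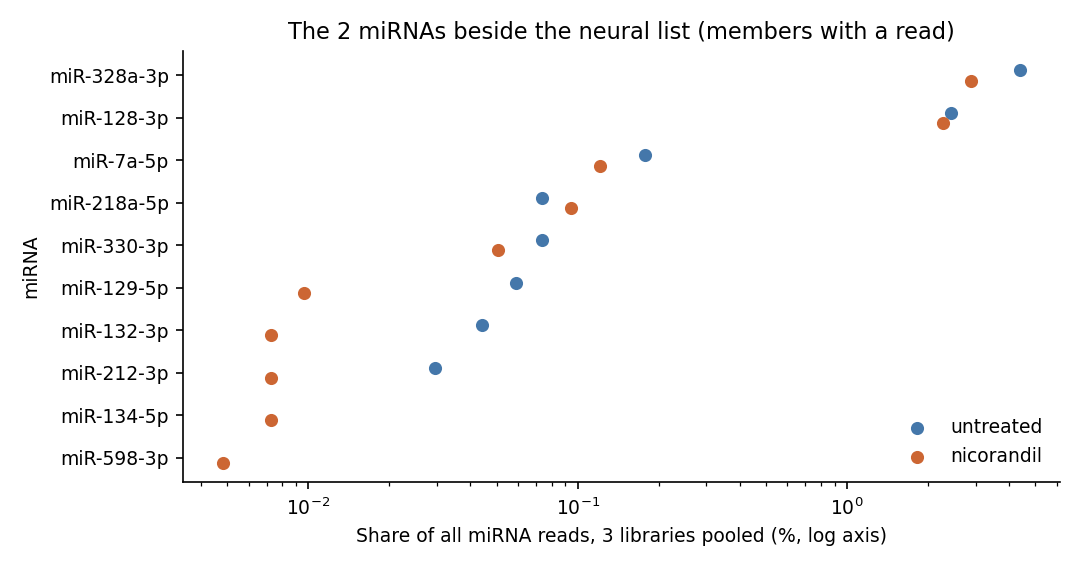
Share of all miRNA reads (percent, log axis, 3 libraries of a group pooled) of miR-328a-3p and miR-128-3p and of the 8 members of the neural list with a read, untreated in blue and nicorandil in orange; zero counts are not drawn. Both miRNAs lie above 2%, while miR-7a-5p, the first of the list, had 12 untreated and 50 nicorandil reads.

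Summed over each list, markers of 4 other cell types took lower shares in every nicorandil library than in any untreated one. The share of miR-328a-3p did so too, as did those of 21.5% of single tested miRNAs. That percentage is for single miRNAs and is no background for sums over lists. Liver and gut markers (3 of 3 with a read, 351 reads) took 1.44% to 2.61% of the untreated and 0.463% to 0.617% of the nicorandil reads, and blood cell markers (6 of 7, 185 reads) 0.678% to 0.854% and 0.263% to 0.415%. Within the blood list miR-142-5p was at a log2 fold change of 0.36 (SE 0.68, limma adjusted p = 0.86). Endothelial markers (1 of 2, 32 reads) took 0.181% to 0.360% and 0.0301% to 0.0356%, and epithelial markers (5 of 5, 30 reads) 0.181% to 0.385% and 0.0119% to 0.0301%. Of the epithelial list miR-200b-3p was called lower for the deposited values (log2 fold change -2.41, limma adjusted p = 0.0086). miR-200a-3p was not (-1.49, limma adjusted p = 0.203). miR-200c-3p had 2 untreated and 3 nicorandil reads, miR-141-3p 0 and 1, and miR-429 2 and 0. Muscle markers (2 of 7) had no untreated read and at most 0.0120% of a nicorandil library. The part of these cells, or of the 6.11-fold depth difference, in the members' values was not tested.

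The tested miRNAs most like miR-128-3p over the 6 libraries, by Pearson correlation of log2(value + 1), were miR-199a-3p (r = 0.92), miR-484 (0.85) and miR-100-5p (0.80). miR-199a-3p, a mesenchymal miRNA, had untreated values of 17.8, 27.5 and 12.4 and values of 33.8, 27.0 and 32.5 after nicorandil, so it too was highest of the untreated in replicate 2. For miR-328a-3p they were miR-484 (0.73), miR-149-5p (0.73) and miR-3473 (0.72), the first of which rests on 20 reads. Between the members r was 0.33. The points share libraries, depth and the difference between the groups, so these values describe 6 libraries only.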

How the data were processed

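Small RNA libraries from exosomes, 3 of the untreated and 3 of the nicorandil group, were compared, grouped by their labels. The tools named by the submitters' processing notes are FastQC, Bowtie and edgeR. Their versions, the genome build and the annotation were not stated in any source used. The authors deposited a normalized read signal per library. Recomputing edgeR pseudo-counts (dispersion 0.0272) from whole reads gave 100% of the 763 miRNAs within 0.001 of the deposited value (largest difference 3.9e-07), so those reads were used for shares and ratios. The deposited table also holds the authors' log2 fold change and p-value.

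limma 3.58.1 (R 4.3.3) with an intensity trend was run on log2(value + 1), without covariates, for the 121 miRNAs whose mean value reached 1; the pseudocount understates changes of low miRNAs. Shares and the ratio were compared with two-sided exact permutation tests (scipy 1.17.1). Alternatives were other scalings, filters and pseudocounts, edgeR 4.0.16, DESeq2 1.42.0, limma-voom, a replicate block, and libraries left out or averaged. Members, lists and the rule for named miRNAs were chosen with earlier results of these data known. That rule took members, other arms, the 12 most abundant, seed sharers at the same position, neural miRNAs with a read and the 3 most alike. miR-27a-3p, miR-27b-3p, other single members named from the mesenchymal, blood and epithelial lists, and other named miRNAs without a read fall outside it. They were chosen after their values were seen. Amplified reads lacking molecular identifiers do not count independent molecules, so intervals and floors cover counting error only.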

Additional observations from a re-analysis of the deposited data

How the results depend on the processing

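The log2 fold change of miR-128-3p kept its sign and stayed short of the threshold in 19 of 20 alternatives, and the exception was library totals, at -0.12. That of miR-328a-3p kept its sign in all 20 and passed in 1, library totals, at -0.62. Leaving out each library gave 0.24 to 0.49 for miR-128-3p and -0.26 to -0.02 for miR-328a-3p. With library totals and a library left out, chosen after the data were seen, the ranges were -0.26 to 0.036 and -0.76 to -0.49, and with untreated replicates 1 and 2 averaged miR-328a-3p was at -0.55. The sign changes of miR-128-3p came without untreated replicate 2, at 0.036 with library totals and 0.058 percentage points for its share (range -0.45 to 0.058). The share of miR-328a-3p (-1.97 to -1.14 percentage points) and the ratio of the pair kept their signs. The cause was not tested.

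Against 26 miRNAs called, there were 15 (4 higher, 11 lower) with library totals, 15 (6 and 9) with median-of-ratios factors, 13 (6 and 7) with the upper quartile, 13 (7 and 6) in edgeR's quasi-likelihood test, where 55 miRNAs were kept, 14 (5 and 9) in DESeq2, and 11 to 21 with a library left out, the fewest without nicorandil replicate 2. limma-voom split its 19 into 9 and 10, against 17 and 9.

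Correlations of same-numbered deviations were 0.01, 0.04 and -0.03, so no pairing by replicate number was seen. At this depth such correlations cannot exclude a pairing. With the replicate block 26 miRNAs were called, miR-128-3p was at 0.34 (limma adjusted p = 0.169, unadjusted 0.048), and the difference in log2 ratio was -0.51 (exact permutation p = 0.25, the smallest that 3 pairs allow). Depth limits the untreated values most, which rest on 165 reads of miR-128-3p and 297 of miR-328a-3p.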
